A study of Mus musculus with 69 samples.

Results

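The comparison described here is that of p53KO–emiRFP with WT–emiRFP mouse embryonic stem (mES) cells in pure culture at 0 h, before any gastruloid was made. Its members are the 3 p53KO–emiRFP and the 3 WT–emiRFP libraries that the labels place at 0 h, 6 of the 69 libraries of the series. In a fit of all 9 libraries of 0 h, which also held those of another WT clone, 18395 genes could be tested. The series is a bulk poly(A) RNA sequencing time course of mosaic gastruloids, 3D aggregates of mES cells that mimic early gastrulation. It asks how cells without p53 outcompete WT neighbours, and the 0 h comparison asks how far the knockout cells already differed before they met WT cells.

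All clones were E14Tg2A mES cells kept in serum and LIF on gelatin. The WT–emiRFP clone carried a piggyBac transgene for H2B–emiRFP670, a far-red nuclear marker driven by the CAG promoter. The p53KO–emiRFP clone was a daughter of WT–emiRFP, made with Cas9 and a guide against Trp53 and selected with Nutlin-3a, which kills cells with working p53, and had a homozygous +1 frameshift insertion in exon 4. It therefore had the WT–emiRFP transgene too, and the knockout differs from its parent by the mutation, the selection and a further cloning step. A sister clone, WT–mCherry, with H2B–mCherry behind the EF1α promoter, gave 3 further libraries at 0 h. The p53KO genotype is 1 clone, so the mutation and other differences between that clone and its parent cannot be told apart. By the study's reporting summary the sequenced samples came from 3 independent experiments done at separate times, and the replicates are repeats of these clones.

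p53, encoded by Trp53, is a transcription factor that binds DNA as a tetramer and raises the transcription of genes for cell cycle arrest, apoptosis, DNA repair and metabolism. Among its targets is Mdm2, the ubiquitin ligase that in turn marks p53 for degradation. mES cells hold p53 protein without added damage, and in the early embryo p53 is known for removing unfit epiblast cells.

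The 9 libraries of 0 h had 26722541 to 72981570 counts, the lowest in WT–mCherry replicate 3 and the highest in WT–emiRFP replicate 1. The first principal component, with 52.7% of the variance, separated the 3 clones. The second, with 18.2%, set WT–emiRFP replicate 1 apart, whose expressed genes lay 0.390 log2 units (root mean square) from the other replicates of its clone, against 0.222 to 0.307 for the other libraries. List counts that moved when it was left out are given both ways. In all libraries the summed normalized count (counts divided by a size factor) of 12 mES cell genes, among them Pou5f1, Sox2 and Nanog, exceeded that of each list of other cell types, at 360092 to 387160 in p53KO–emiRFP and 412350 to 456969 in WT–emiRFP.

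Trp53 itself (chromosome 11, 69580359 to 69591873, plus strand, GRCm38) came first, since it checks the labels. Its normalized counts were 2331, 2532 and 2589 in p53KO–emiRFP, 27510.5, 25304 and 23677 in WT–emiRFP, and 24798, 24046 and 20697 in WT–mCherry. The knockout libraries were all far below both WT clones, as labelled, at 9.74% of the WT–emiRFP mean, a log2 fold change of -3.36 ± 0.10 (SE, edgeR adjusted p = 6.0e-10). Of 17 tested neighbours of Trp53 on chromosome 11, 2 were called, both higher: Chd3, a chromatin remodeller (0.59 ± 0.12, edgeR adjusted p = 0.008), and Atp1b2, a sodium pump subunit (0.42 ± 0.10, edgeR adjusted p = 0.029). These were 11.8% of the neighbours, beside 6.14% of all tested genes. The call of Atp1b2 was lost without WT–emiRFP replicate 2 and without p53KO–emiRFP replicate 2 or 3. Wrap53, its head-to-head neighbour, had a log2 fold change of -0.04 and was not called.

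Over all genes, 1129 of 18395 (6.14%) passed an adjusted p of 0.05, with 363 higher (1.97%) and 766 lower (4.16%) in p53KO–emiRFP. The falls reached further than the rises. Past the threshold and with a size of at least 1 log2 unit were 137 rises (0.745%) and 284 falls (1.54%). Of the called genes, 84 fell and 20 rose by at least 2 log2 units, and 35 fell and 3 rose by at least 3, while the median size of a call was 0.86 for rises and 0.82 for falls. The median log2 fold change of all genes was -0.01. Same-numbered libraries of the pair deviated together, which the main fit did not take into account. With the replicate number as a block 1801 genes passed (9.79%), 655 higher (3.56%) and 1146 lower (6.23%). DESeq2 called 1523 (8.28%), with 521 higher (2.83%) and 1002 lower (5.45%). Set against the mean of both WT clones, 2686 genes passed (14.6%), 1244 higher (6.76%) and 1442 lower (7.84%), so that 46.3% of the calls were rises, compared with 32.2% against WT–emiRFP alone. In a fit of only the 6 libraries of the pair, 870 of 17713 genes passed, 281 higher and 589 lower. Without WT–emiRFP replicate 1 there were 1548 calls, without WT–emiRFP replicate 2 there were 686, and without p53KO–emiRFP replicate 2 or 3 there were 586 and 620. Over the 6 fits that each left out 1 library of the pair, 141 rises and 340 falls were called every time.

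**Figure D1:**
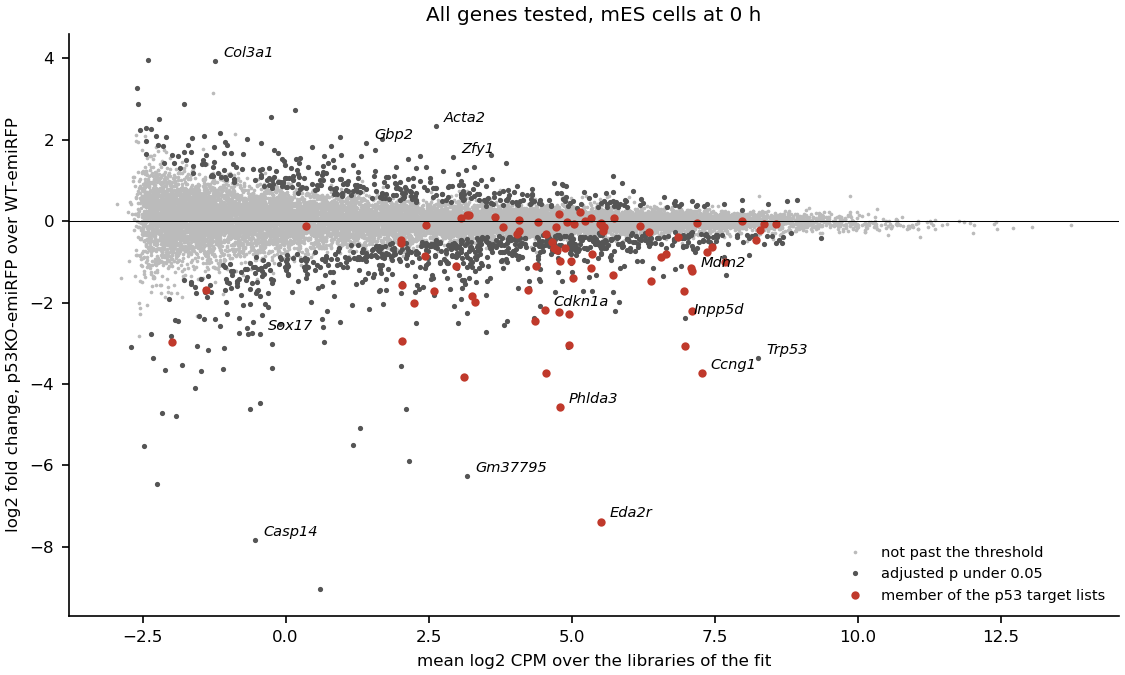
Log2 fold change of p53KO–emiRFP over WT–emiRFP mES cells (y axis) against mean log2 CPM (x axis) for the 18395 genes tested with called genes darker and some of them named. Members of the p53 target lists are coloured. The cloud is centred near 0, Eda2r lies at -7.38 and Acta2 at 2.34.

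Known p53 targets fell in part, and none in the lists was called higher in the main fit. Of 81 targets in 4 lists (arrest, apoptosis, DNA repair, metabolism and feedback), 79 were tested, 44 fell and 0 rose, with a median log2 fold change of -0.67 against -0.01 over all genes. The calls were 55.7% of the tested targets, where 4.16% of all tested genes fell and 1.97% rose. With the replicate block 48 fell, without WT–emiRFP replicate 1 45 fell and 1 rose, and over all fits that left out 1 library 37 to 45 fell. DESeq2 called 45 falls and 0 rises, and at an unadjusted edgeR p under 0.05 there were 51 falls and 0 rises. These lists were compiled as p53 targets, and earlier results of these libraries were known when they were drawn up. Together the 81 genes held 0.359%, 0.353% and 0.356% of the counts in p53KO–emiRFP, 0.556%, 0.518% and 0.527% in WT–emiRFP, and 0.674%, 0.575% and 0.552% in WT–mCherry. The 2 groups of the pair did not overlap (exact permutation test, two-sided p = 0.1, the smallest that 3 against 3 can give).

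Some of these genes have a match to a p53 element near an annotated start site. A p53 response element is 2 copies of a 10-base unit, and promoters (250 bases before to 50 after the start site, RefSeq, GRCm38.p6) were searched for both copies joined without a spacer, with up to 2 mismatches and none in the central C and G of each unit. The element reads as itself on the other strand, so 1 scan covers both. Matches were in the promoter windows of 13 genes that fell. In the 4 target lists 7 tested genes had one, and the 6 shown belong to genes whose values follow. That of Ckap2 (log2 fold change -0.80) is not shown. Sequences are in the direction of transcription, with the 20 matching bases in capitals and 5 flanking bases on each side.
Cdkn1a, chr17:29090923-29090952, plus strand: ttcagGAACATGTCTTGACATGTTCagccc
Ccng1, chr11:40755457-40755486, minus strand: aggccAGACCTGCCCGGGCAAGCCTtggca
Gtse1, chr15:85859940-85859969, plus strand: accggGAGCAAGTTGGGGCTTGCCTctgac
Rps27l, chr9:66946291-66946320, plus strand: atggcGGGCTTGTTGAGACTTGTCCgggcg
Zfp365, chr10:67912701-67912730, minus strand: tagcaAGACTAGGCTGGGCAAGACTggcac
Cd80, chr16:38458817-38458846, plus strand: gctcaGAACAGGCCTGGACAAGTCAcctcc
The first 4 had 1 mismatch and the last 2 had 2. Their centres lay 41 bases (Cdkn1a), 185 bases (Ccng1), 107 bases (Rps27l), 53 bases (Zfp365) and 101 bases (Cd80) before the start site of the matching promoter entry, and 9 bases after it in Gtse1. A gene can have more than 1 entry, so this start site need not be its main one. Shares are of genes with a match in any of their promoter windows. They were 0.392% of all 27025 genes with a promoter (106 genes), 2.44% of falling genes (13 of 533), 14.5% of genes that fell by at least 2 log2 units (8 of 55), 0.346% of those not called (41 of 11851), and 0 of 255 genes that rose. Of all 32851 promoter entries 107 had a match (0.326%). Outside the 4 lists, 6 of 497 falling genes with a promoter had one (1.21%). These shares are a description with no test, and a match is not a measured binding site.

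Targets that slow the cell cycle had the largest share of falls among the 4 lists. Of 15 tested, 12 fell and 0 rose (median -1.70), and without WT–emiRFP replicate 1, 12 fell and 1 rose. Cdkn1a, which encodes the CDK inhibitor p21, had 424, 385 and 349 normalized counts in p53KO–emiRFP and 2122, 1609 and 1541 in WT–emiRFP (log2 fold change -2.18 ± 0.16, edgeR adjusted p = 4.1e-06). The groups did not overlap, and the transcript was still counted in every knockout library. Ccng1, encoding cyclin G1, which acts on Mdm2 through protein phosphatase 2A, fell further, with 915, 762 and 678 against 10239, 9607 and 11576 (-3.74 ± 0.15, edgeR adjusted p = 1.4e-08). Zfp365, a zinc finger gene linked to genome stability, had 116, 72.3 and 65.5 in the knockout and 1248, 1037 and 1127 in WT–emiRFP (-3.74 ± 0.27, edgeR adjusted p = 3.6e-06). Ptprv, a phosphatase gene that responds to p53, had 24.9, 36.6 and 37.6 against 518, 451 and 451 (-3.84 ± 0.30, edgeR adjusted p = 6.6e-06). For these genes every knockout library was below every WT–emiRFP library, as it was for 13 of the 15, where 13.9% of all tested genes showed such an order downwards.
Plk2, a polo-like kinase, fell by 3.05, Btg2, an antiproliferative regulator of mRNA decay, by 2.44, Psrc1, a microtubule-binding protein of the spindle, by 2.20 and Gtse1, a G2 phase protein that restrains p53, by 1.00 on the log2 scale. The long noncoding RNA Trp53cor1 fell by 1.70 from few counts, and its call was lost without WT–emiRFP replicate 2 and without p53KO–emiRFP replicate 2 or 3. Gadd45a, Plk3 and Sfn, stress-response genes in the same list, had log2 fold changes of -0.13, 0.07 and 0.22 and were not called.

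Apoptosis targets split into receptors, the Bcl2 family and the machinery downstream. Of 21 tested, 15 fell and 0 rose (median -0.89). Eda2r had the largest fall by the naming rule. It is a receptor of the tumour necrosis factor family on the X chromosome, and had 20.7, 15.8 and 21.8 normalized counts in p53KO–emiRFP, 2547, 3166 and 3990.5 in WT–emiRFP and 5045, 3842 and 4242 in WT–mCherry. It fell to 0.602% of the WT–emiRFP mean (-7.38 ± 0.23, edgeR adjusted p = 6.0e-10). Phlda3, an inhibitor of Akt at the membrane, had 66.4, 84.2 and 109 against 2533, 1665 and 1884 (-4.56 ± 0.25, edgeR adjusted p = 3.1e-07).
Bbc3, encoding the BH3-only protein Puma, had 463, 368 and 503 against 2472, 1799 and 1951 (-2.22 ± 0.24, edgeR adjusted p = 9.2e-05). Bax, which forms pores in the mitochondrial membrane, had 3435, 3354 and 3322 against 7523, 5749 and 5441 (-0.89 ± 0.12, edgeR adjusted p = 8.2e-04). Both were lower in every knockout library than in any WT–emiRFP library, Bbc3 at 21.5% and Bax at 54.0% of the mean. Pmaip1, encoding the BH3-only protein Noxa, had 469.9, 558 and 711 against 604, 650.0 and 921, which overlap (-0.33 ± 0.19, edgeR adjusted p = 0.40). In the Bcl2 family as a whole, 2 of 15 fell (Bbc3 and Bax) and 0 rose, and Bid, Bcl2, Bcl2l1 and Mcl1 were not called, with log2 fold changes of -0.06, 0.10, -0.18 and -0.20. The calls were 13.3% of the family, beside 6.14% of all tested genes.
Among death receptors, Tnfrsf10b fell by 0.98. Fas had 1.04, 0 and 3.64 normalized counts against 13.4, 9.41 and 13.5 in WT–emiRFP, so its fall (-2.98 ± 0.62, edgeR adjusted p = 0.012) rests on few reads and lost its call without p53KO–emiRFP replicate 1 or 2. Apaf1, the core of the apoptosome, fell by 1.14, Perp, a desmosome protein, by 1.11 and Aen, a nuclease, by 1.16. Rps27l, a ribosomal protein paralogue with a match in its promoter window, fell by 0.75 ± 0.17 (edgeR adjusted p = 0.017), a call lost without p53KO–emiRFP replicate 2 or 3.

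**Figure D2:**
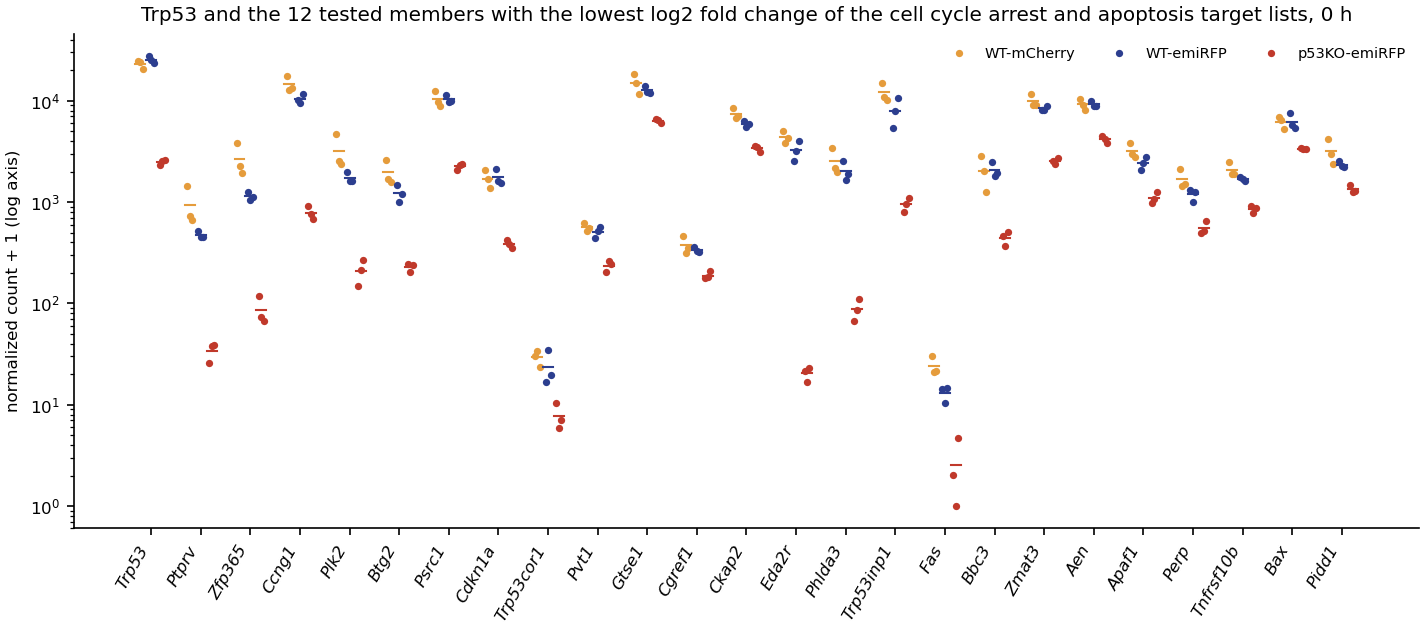
Normalized counts plus 1 (log axis) of Trp53 and of the 12 members with the lowest log2 fold change in each of the arrest and apoptosis lists, in each library of the 3 mES cell clones at 0 h, 3 points a clone, with bars at the means. Since they were chosen for low values the knockout points lie below WT–emiRFP, for Eda2r at 15.8 to 21.8 normalized counts against 2547 to 3990.5.

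Repair and metabolism targets moved in part. In the DNA repair list 3 of 12 fell: Mgmt, which removes alkyl groups from guanine (-1.85 ± 0.16), Polk, a translesion polymerase (-1.70 ± 0.13), and Ercc5, an endonuclease of nucleotide excision repair (-0.98 ± 0.11). Mgmt had 168, 210.0 and 216 normalized counts in p53KO–emiRFP and 833, 641 and 659.8 in WT–emiRFP, with no overlap. Ddb2 and Xpc, the damage sensors of excision repair, had log2 fold changes of 0.07 and 0.01, Pcna, the polymerase clamp, -0.08 and Rrm2b, a ribonucleotide reductase subunit, -0.10, and none of these was called.
In the metabolism and feedback list 14 of 31 fell and 0 rose (median -0.46), and 15 fell without WT–emiRFP replicate 1. Cd80, a costimulatory ligand, had 28.0, 31.7 and 37.6 against 239, 244 and 263 (-2.94 ± 0.22, edgeR adjusted p = 4.7e-06). Lif, the cytokine that is also added to the medium, had 63.3, 76.3 and 64.3 against 334, 240.4 and 244, a fall to 24.9% of the mean (edgeR adjusted p = 2.2e-04). Both were lower in each knockout library than in any WT–emiRFP library. Cpt1c, a brain-type carnitine palmitoyltransferase, fell by 2.29, Dcxr, a xylulose reductase, by 1.99, Ephx1, an epoxide hydrolase, by 1.71 and Foxo3, a forkhead transcription factor, by 1.46. Sesn1 (-0.03) and Gdf15 (-0.55), a stress sensor of the mTOR pathway and a stress cytokine, were not called, whereas Sesn2 fell by 0.64 ± 0.15 (edgeR adjusted p = 0.019), a call lost without WT–emiRFP replicate 2 and without any of the 3 knockout libraries.

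Regulators and relatives of p53 fell in part. Of 16 tested, 8 fell and 0 rose, Trp53 included, where 4.16% of all tested genes fell. Mdm2 had 3658, 3536 and 3698 normalized counts in p53KO–emiRFP and 8795, 7929 and 8747 in WT–emiRFP (-1.23 ± 0.13, edgeR adjusted p = 8.0e-05), and Mdm4, its partner that inhibits p53, 5041, 4982 and 5300.3 against 9951, 13354 and 15229 (-1.33 ± 0.13, edgeR adjusted p = 4.2e-05). Trp73, the p53 family member, fell by 2.07 ± 0.36, Zmat3, an RNA-binding protein, by 1.73 and Trp53inp1, a stress protein that enhances p53 activity, by 3.08. Ppm1d, a phosphatase of p53, fell by 0.51 and Rchy1, another ubiquitin ligase, by 0.38, and both calls were lost without WT–emiRFP replicate 2 and without p53KO–emiRFP replicate 2 or 3, that of Ppm1d also without p53KO–emiRFP replicate 1. The damage kinases Atm, Atr and Chek2, and Usp7, Cop1 and Trp53bp1, had log2 fold changes from 0.00 to 0.10 in size and were not called.

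One of the largest falls lies next to a microRNA of the p53 pathway. miR-34a acts on mRNAs of cell cycle and survival genes, and its primary transcript is a p53 target. Its mature sequences (RefSeq, GRCm38.p6) are shown because the called gene abuts them, with the seed, bases 2 to 8, in capitals.
mmu-miR-34a-5p, chr4:150068473-150068494, plus strand: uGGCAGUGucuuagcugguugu
mmu-miR-34a-3p, chr4:150068517-150068537, plus strand: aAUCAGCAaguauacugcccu
Gm37795, an unclassified transcript on the same strand (chromosome 4, 150068539 to 150070997), begins 2 bases after the end of miR-34a-3p and shares 17 bases with the hairpin. Its normalized counts were 4.15, 6.93 and 9.71 in p53KO–emiRFP, 546, 481 and 572 in WT–emiRFP and 1302, 808 and 784 in WT–mCherry (-6.26 ± 0.30, edgeR adjusted p = 7.4e-08). The knockout was at 1.30% of WT–emiRFP, and the groups did not overlap. These are counts of poly(A) RNA assigned to Gm37795 and not of the mature miRNA, which was not measured.

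Beyond the lists, the 10 largest falls by the naming rule also held D630023F18Rik (-5.89), Anxa8, a calcium-dependent membrane-binding annexin (-5.49), Inka2, an inhibitor of the kinase Pak4 (-5.08), and Zfp750, an epidermal transcription factor (-4.61). Anxa8 had 2.07, 3.96 and 3.64 normalized counts in p53KO–emiRFP against 179, 106 and 163 in WT–emiRFP. Zfp750 had 11.4, 9.90 and 10.9 against 293, 262 and 241. Neither overlapped. A few genes outside the rule, named after their values were seen, had 0 counts in all 3 knockout libraries, among them Ano3, encoding an anoctamin, with 59.3, 81.5 and 70.9 in WT–emiRFP, and Casp14, a caspase of the skin, with 22.9, 29.3 and 38.6. Against a floor of 3 counts over the 3 knockout libraries, Ano3 was at least 65.8-fold lower and Casp14 at least 28.2-fold lower. Also named after their values were seen, Slc19a2, a thiamine transporter (-2.21 ± 0.13), Map3k20, a stress kinase of stalled ribosomes (-2.56 ± 0.17), Ddit4l, an inhibitor of mTOR signalling (-2.49 ± 0.24), Rb1, the retinoblastoma protein (-1.65 ± 0.21), and Rev1, a translesion polymerase (-0.97 ± 0.11), fell with no overlap between the groups.

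The largest rises were smaller than the largest falls. Acta2, smooth muscle actin, had 409, 553 and 1064 normalized counts in p53KO–emiRFP and 83.8, 186 and 133 in WT–emiRFP (2.34 ± 0.34, edgeR adjusted p = 0.0011). Acta1, skeletal actin, had 216, 322 and 465 against 56.9, 92.0 and 97.9 (2.03 ± 0.26, edgeR adjusted p = 4.7e-04). Thbs1, encoding the matrix protein thrombospondin 1, had 763, 895 and 1342 against 224, 346 and 408 (1.62 ± 0.23, edgeR adjusted p = 7.6e-04). In all 3 genes the knockout libraries were above WT–emiRFP. The knockout libraries did not overlap with WT–emiRFP in 9.92% of all tested genes upwards. The other leading rises were Gbp2, an interferon-induced GTPase (1.92), Kcnj3, a potassium channel (1.75), Pmp22, a myelin protein (1.60), Fosl2, an AP-1 subunit (1.59), the Y-linked Zfy1 (1.57), Miip (1.52) and Gm14569 (1.42). Miip, an inhibitor of cell migration, was the tightest, with 418, 410.0 and 394 against 156, 140.0 and 129 (1.52 ± 0.13, edgeR adjusted p = 1.7e-05). Between p53KO–emiRFP and WT–mCherry, Thbs1 and Kcnj3 did not pass the test (log2 0.57, edgeR adjusted p = 0.082, and 0.13, edgeR adjusted p = 0.67), whereas WT–emiRFP was below WT–mCherry for both (-1.05, edgeR adjusted p = 0.012, and -1.62, edgeR adjusted p = 3.3e-04).

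Fibroblast markers moved with these rises. Of 7 tested fibroblast markers 5 rose and 0 fell: Col3a1, Acta2, Col1a2, Col1a1 and Thy1. Over all tested genes 1.97% rose and 4.16% fell. The collagen Col3a1 had 33.2, 29.7 and 97.1 against 0, 4.18 and 6.28 (3.93 ± 0.66, edgeR adjusted p = 0.0028), and Col1a1 148, 129 and 209 against 73.5, 61.7 and 67.3 (1.25 ± 0.20, edgeR adjusted p = 0.0023). The calls of Col1a2 and Thy1 were lost without WT–emiRFP replicate 2 or 3 and without p53KO–emiRFP replicate 2 or 3, that of Thy1 also without p53KO–emiRFP replicate 1. Pdgfrb (0.00) and Fbn1 (-0.23) were not called, and the defining markers Postn, Dcn, Lum, Tagln and Fap had too few counts to be tested. The summed list was at 1429 to 2442 in p53KO–emiRFP, 950 to 1111 in WT–emiRFP and 1045 to 1129 in WT–mCherry. The adhesion and matrix list was divided, with 6 of 30 higher, 4 lower and a median of -0.01. These calls were 33.3% of the list, beside 6.14% of all tested genes. The list had 7 higher and 6 lower both without WT–emiRFP replicate 1 and with the replicate block, and 4 to 7 higher and 2 to 6 lower over the fits without 1 library. The 4 called lower were Twist1 (-1.12), the basement membrane genes Col4a1 (-0.98) and Lama1 (-0.62), and Vim (-0.63). Whether other cells took part in these changes was not tested. In bulk RNA more or fewer cells of a type and more or less RNA per cell cannot be told apart.

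Genes of the pluripotent state were called in both directions. Of 24 naive pluripotency genes 7 fell and 1 rose, where 4.16% of all genes fell and 1.97% rose, and with the replicate block 9 fell (6.23% of all genes) and 1 rose. Nanog had 30351, 29202 and 28099 normalized counts in p53KO–emiRFP and 41554, 37562 and 38451 in WT–emiRFP (-0.42 ± 0.08, edgeR adjusted p = 0.0073), and Tbx3, a T-box factor of the naive state, 4806, 4552 and 5159.5 against 7323, 6895 and 7943 (-0.61 ± 0.09, edgeR adjusted p = 9.7e-04). Fgf4, Nr0b1, Spp1, Prdm14 and Klf4 fell by 0.34 to 0.48 on the log2 scale. Dppa3, which protects DNA from methylation changes in the early embryo, rose from 1788, 1140.2 and 1123 to 2798, 2465 and 2343 (0.91 ± 0.17, edgeR adjusted p = 0.0057). Pou5f1 (-0.19), Sox2 (-0.16), Esrrb (-0.25) and Zfp42 (-0.17) were not called. The call of Klf4 was lost without any 1 library of the pair other than WT–emiRFP replicate 1. The number of naive genes called lower ranged from 2 to 10 over the fits without 1 library, and was 10 without WT–emiRFP replicate 1.
In the formative and primed list the calls went the other way, with 7 of 19 higher and 0 lower, where 1.97% of all genes rose and 4.16% fell. Otx2, a homeobox factor of the formative epiblast, had 735, 782 and 906 against 369, 395 and 449 (1.00 ± 0.13, edgeR adjusted p = 3.7e-04). Pou3f1, a POU factor, had 565, 491 and 764 against 325, 330.2 and 335 (0.88 ± 0.15, edgeR adjusted p = 0.003), and the methyltransferase Dnmt3a 7359.9, 7249.8 and 7421 against 5279.6, 5458 and 5444 (0.45 ± 0.07, edgeR adjusted p = 0.0019). None of the 3 overlapped. Fgf5 (1.12), Cldn6 (0.54), Grhl2 (0.48) and Dnmt3b (0.42) were the other calls, and that of Fgf5 was lost without p53KO–emiRFP replicate 3. The call of Dnmt3b was lost in the fits without WT–emiRFP replicate 2 or 3 or p53KO–emiRFP replicate 1 or 2. Against WT–mCherry, the values for Fgf5 and Pou3f1 were 0.21 (edgeR adjusted p = 0.56) and 0.30 (edgeR adjusted p = 0.18), and for WT–emiRFP against WT–mCherry they were -0.91 (edgeR adjusted p = 0.028) and -0.58 (edgeR adjusted p = 0.027). In the whole list 5 of 19 were higher and 1 lower against WT–mCherry (10.6% and 10.8% of all genes). Against the mean of both WT clones 7 were higher and 0 lower (6.76% and 7.84% of all genes).

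Genes of the two-cell-like state, a rare state of mES cells that resembles the early cleavage embryo, fell in part. Of 17 tested, 7 fell and 0 rose (median -0.57), 6 without WT–emiRFP replicate 1, 11 with the replicate block and 2 to 9 over the fits without 1 library. Over all tested genes 4.16% fell, and with the block 6.23%. Zscan4a had 712, 489 and 451 against 1889.5, 1033 and 1386 in WT–emiRFP and 3649.7, 2766 and 3842 in WT–mCherry (-1.38 ± 0.22, edgeR adjusted p = 0.0018). The Zscan4 genes are near-identical neighbours on chromosome 7, and reads of 1 copy may be lost or assigned to another, so their separate values are uncertain. Tmem92 (-0.98) and Zfp809 (-0.82) fell as well, and the call of Tmem92 was lost without p53KO–emiRFP replicate 2 or 3.

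Markers of the first lineages outside the epiblast were called lower for primitive endoderm and higher for trophoblast against WT–emiRFP. Of 13 primitive endoderm genes 8 fell and 0 rose (median -0.69), and with the replicate block 10 fell. Over all tested genes 4.16% fell, and with the block 6.23%. Sox17 had 6.22, 7.92 and 9.71 against 57.7, 48.1 and 58.4 (-2.78 ± 0.27, edgeR adjusted p = 4.2e-05), Cubn, an endocytic receptor, 48.8, 56.5 and 31.5 against 208, 264 and 315 (-2.51 ± 0.24, edgeR adjusted p = 3.7e-05), and Gata6 38.4, 19.8 and 35.2 against 78.3, 87.8 and 116 (-1.60 ± 0.27, edgeR adjusted p = 0.0031). The groups did not overlap for any of them. The summed list was at 13670 to 15156 in p53KO–emiRFP, 21018 to 21410 in WT–emiRFP and 23095 to 25529 in WT–mCherry, and Gata4 (-0.47, edgeR adjusted p = 0.052) missed the threshold.
Of 10 trophoblast genes 5 rose and 0 fell (median 1.00), where 1.97% of all tested genes rose. The keratins Krt8, Krt18 and Krt7 rose by 0.93, 1.12 and 1.16, Hand1, a factor of trophoblast giant cells and mesoderm, by 1.07 and Cdx2, a trophectoderm and posterior factor, by 1.61. Krt18 had 3261, 3862 and 4968 against 2316, 1460.0 and 1788 in WT–emiRFP and 3249, 2579 and 2920.1 in WT–mCherry. The call of Cdx2 was lost without WT–emiRFP replicate 2 or p53KO–emiRFP replicate 3. Eomes, Tfap2c and Gata3 were not called (-0.06, 0.04 and -0.41), and Tpbpa and Prl3d1 could not be tested. Against WT–mCherry none of Krt8, Krt7, Hand1 and Cdx2 passed the test, with log2 values of 0.03, 0.12, 0.33 and 0.43. In that comparison 1 of the 10 trophoblast genes was higher (Elf5, 2.07) and 2 were lower (Gata3, -0.97, and Ascl2, -0.71), while of the primitive endoderm genes 1 was higher and 10 were lower. The summed list was at 12604 to 17022 in p53KO–emiRFP, 8795 to 11123 in WT–emiRFP and 11883 to 14193 in WT–mCherry, and its part in these values was not tested.

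Growth and division genes gave almost no calls against WT–emiRFP at 0 h. In 6 lists edgeR called 0 genes: ribosome biogenesis (49 tested), G1/S and DNA replication (45), mitosis (46), recombination and Fanconi anaemia (30), the Myc network (12) and glycolysis and hypoxia (31). At an unadjusted p under 0.05 there were 1 gene higher and 0 lower for ribosome biogenesis, 1 and 1 for G1/S, 2 and 0 for mitosis, 0 and 2 for recombination, 0 and 0 for Myc, and 3 and 1 for glycolysis, and DESeq2 called 1 rise for mitosis, 1 rise and 1 fall for glycolysis and 0 in the other lists. The fit without WT–emiRFP replicate 1 called 1 ribosome biogenesis gene, 1 mitosis gene and 2 glycolysis genes higher and 2 recombination genes lower. With the replicate block, edgeR called 1 ribosome biogenesis gene and 1 G1/S gene higher, 1 recombination gene lower, and 1 glycolysis gene in each direction. Against WT–mCherry 8 glycolysis genes were higher and 0 lower, with 6 and 2 for G1/S and 5 and 1 for ribosome biogenesis. Mitosis had 1 and 2 there, recombination 2 and 0, and Myc 0 and 0. In that comparison 10.6% of all genes were higher and 10.8% lower. Myc had a log2 fold change of 0.00, the nucleolar gene Ncl 0.01, the replication helicase gene Mcm2 0.00 and the proliferation marker Mki67 0.08. Among 7 CDK inhibitors Cdkn1a alone was called, and Cdkn1b (-0.06) and Cdkn2a (-0.04) were not. Mitochondrially encoded genes had 0 of 11 called, with 1 lower at an unadjusted p under 0.05, 0 by DESeq2 and 1 lower with the block, and their share of counts was 1.60%, 1.13% and 1.10% in p53KO–emiRFP against 1.62%, 1.20% and 1.39% (exact permutation test, two-sided p = 0.5), lower in the knockout in each of the 3 same-numbered pairs.
Signalling genes gave a few calls. Nodal, the ligand that patterns the epiblast, had 3224, 3531 and 3427 against 7082, 5935 and 5878 (-0.89 ± 0.12, edgeR adjusted p = 8.1e-04), and Smad7 and Gdf3 fell by 0.49 and 0.42, so 3 of 15 Nodal pathway genes fell and 0 rose. Without WT–emiRFP replicate 1, 2 Nodal genes rose and 3 fell, and against WT–mCherry 5 rose and 3 fell. In the Wnt list 1 of 23 rose and 2 fell, in the FGF and ERK list 2 of 23 rose and 1 fell, in the BMP list 1 of 19 rose and 1 fell, and in the YAP list 1 of 16 rose. These calls were 13.0%, 13.0%, 10.5% and 6.25% of the lists, each 1 to 3 genes, beside 6.14% of all tested genes (1.97% higher and 4.16% lower). Without WT–emiRFP replicate 1 these were 2 and 2 for Wnt, 3 and 1 for FGF and ERK, 1 and 1 for BMP, and 3 and 1 for YAP. For the integrated stress response 1 of 29 rose (Phgdh, serine synthesis, 0.51) and 1 fell (Sesn2), and with the replicate block 8 rose (3.56% of all genes rose there) and with DESeq2 5 (2.83%). Over the fits without 1 library 1 to 6 rose and 0 to 1 fell. Against WT–mCherry 22 rose and 0 fell (10.6% of all genes rose), and against the mean of both WT clones 18 rose (6.76%). For cholesterol and fatty acid synthesis 2 of 31 rose (Lss and Dhcr7), without WT–emiRFP replicate 1 3, with the block 7 (3.56% of all genes rose) and against WT–mCherry 17 (10.6%).

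**Figure D3:**
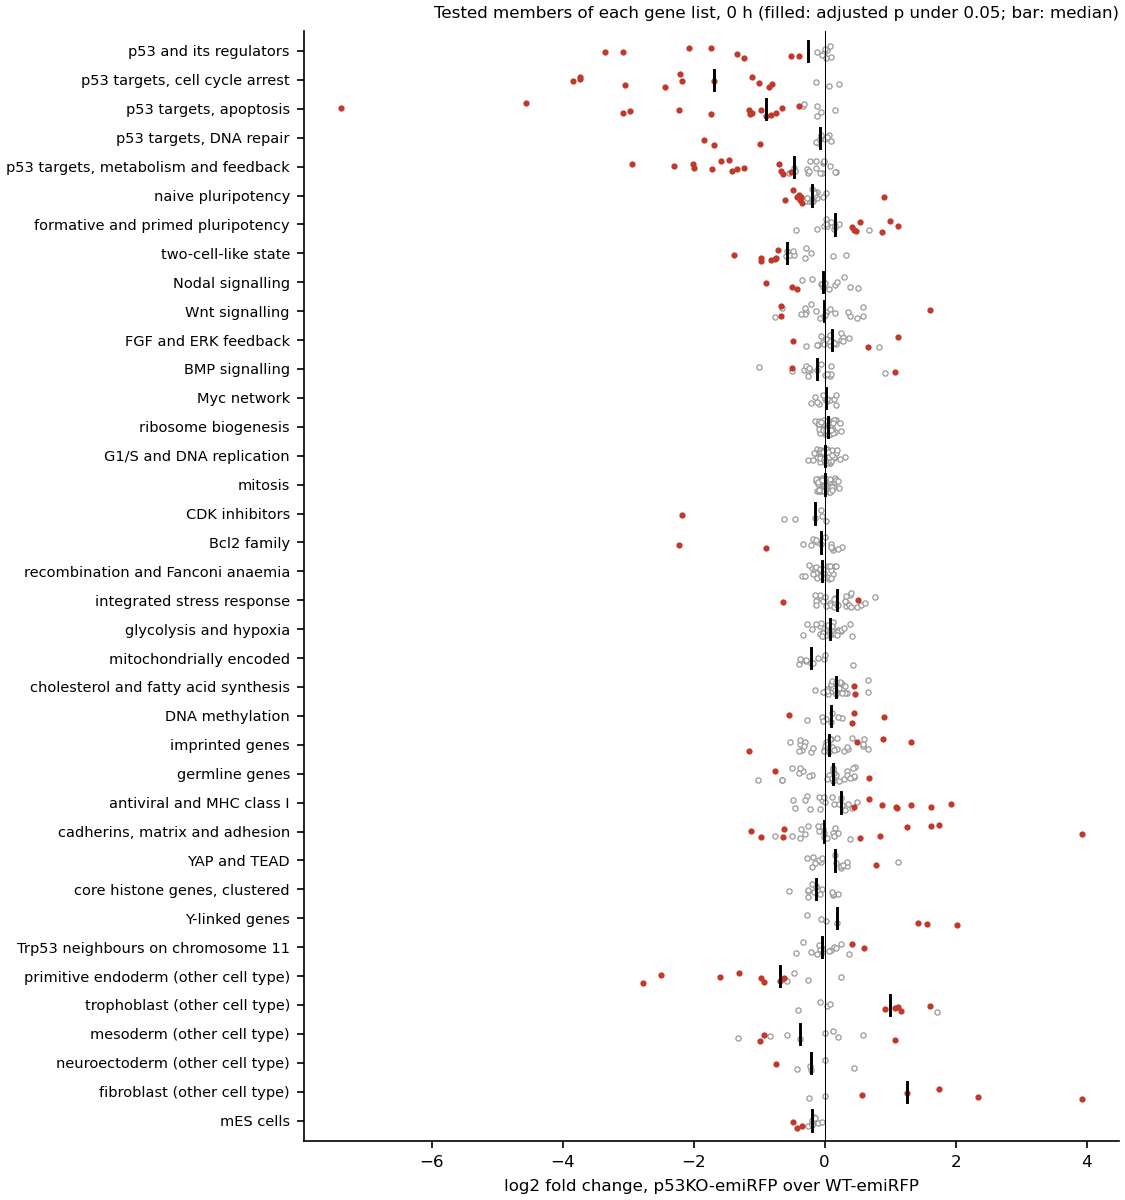
Log2 fold change of p53KO–emiRFP over WT–emiRFP (x axis) for each tested member of the gene lists (rows), with called members marked. Members of the p53 target lists reach far to the left of 0, whereas the ribosome biogenesis, G1/S and mitosis genes lie close to it, with Ccnd1 at 0.31, Utp4 at 0.26 and Espl1 at 0.22 the highest of each. Vertical marks are medians.

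Antigen presentation and interferon genes rose in part. Of 27 antiviral and MHC class I genes 8 rose and 0 fell (median 0.25), with 8 higher and 2 lower with the replicate block, 10 higher without WT–emiRFP replicate 1 and 4 to 10 over the fits without 1 library. Over all tested genes 1.97% rose and 4.16% fell, and with the block 3.56% rose and 6.23% fell. Psmb8, an immunoproteasome subunit, had 42.5, 36.6 and 67.9 against 11.1, 13.6 and 13.5 (1.93 ± 0.31, edgeR adjusted p = 0.0021). H2-Q4, a nonclassical class I gene, had 602, 675 and 730.3 against 365, 375 and 353 (0.88 ± 0.11, edgeR adjusted p = 4.3e-04), and H2-K1, a classical one, 2016, 2293 and 2446 against 1359.8, 1362 and 1494 (0.68 ± 0.10, edgeR adjusted p = 8.4e-04). Tap2, the peptide transporter subunit, H2-T23 and the antiviral Oasl2 rose by 1.09, 1.10 and 1.32. Irf7 (-0.09), a transcription factor of the interferon response, was not called. A run of 4 neighbours on chromosome 17 (35379617 to 35443773), H2-Q4 to H2-Q7, rose together, for H2-Q4, H2-Q6 and H2-Q7 by 0.88, 1.11 and 0.97, and so did 4 guanylate-binding protein genes on chromosome 3 (142530342 to 142638008), Gbp7, Gbp3, Gbp2b and Gbp2, with 1.92 to 2.15. These runs were named after their values were seen, and both hold near-identical paralogues between which reads may be split.
On the Y chromosome 4 of 13 tested genes rose, 3 of them in the list of 7 Y-linked genes, where without WT–emiRFP replicate 1 the count was 2. Over all tested genes 1.97% rose. Zfy1 had 726, 773 and 798 against 122, 317 and 340.2, and Kdm5d, a histone demethylase, 56.0, 70.3 and 47.3 against 7.12, 17.8 and 18.9 (2.02 ± 0.35, edgeR adjusted p = 0.004), whereas Ddx3y, an RNA helicase, had 4856, 4851 and 4406 against 3218, 5116 and 6362 (-0.06). For all 3 genes WT–emiRFP replicate 1 was the lowest library of its clone. The X chromosome had 27 rises (4.16%) and 15 falls (2.31%) among 649 genes, and the median log2 fold change of every autosome and of X lay between -0.03 and 0.03. Among 35 imprinted genes Igf2, a fetal growth factor (1.32 ± 0.19), Magel2 (0.90) and Peg10 (0.49) rose and Cd81, a tetraspanin (-1.16 ± 0.13), fell, which without WT–emiRFP replicate 1 became 5 higher and 5 lower, and against WT–mCherry 4 higher and 16 lower. The calls were 11.4% of the list beside 6.14% of all tested genes, and against WT–mCherry 57.1% beside 21.4%. With the replicate block 6 were higher and 3 lower, 25.7% beside 9.79%. Zfp57, which maintains imprints, fell by 0.54.

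The same genotypes were compared at 48 h, in cells sorted from gastruloids: p53KO–emiRFP from mosaics of 150 WT–mCherry and 25 p53KO–emiRFP cells, and WT–emiRFP from mosaics of 150 and 150 WT cells. There the genotype and the neighbours of the cells cannot be told apart. At 48 h 3896 of 17662 genes were called (22.1%), 1822 higher (10.3%) and 2074 lower (11.7%), with 12 libraries in the fit. With the replicate block the balance turned, with 7259 genes called, 3945 higher and 3314 lower. Of the genes tested at both times, 719 were lower at 0 h, and 463 of them were lower at 48 h as well, 64.4% of the 0 h list and 22.6% of the 48 h list. Of 339 higher genes at 0 h 104 were higher at 48 h, 30.7% of the 0 h list and 5.82% of the 48 h list. In the opposite direction at 48 h were 24 of the 339 rises (7.08%) and 26 of the 719 falls (3.62%). A fit of both times tested the change itself, and 764 of 19208 genes (3.98%) had a different p53KO minus WT difference at 48 h, 322 higher (1.68%) and 442 lower (2.3%).
Among p53 targets 52 of 80 were lower and 3 higher at 48 h (median -0.98), and 21 differed more negatively than at 0 h and 1 less. Cdkn1a fell by 4.90 ± 0.10 at 48 h, to 89.2 ± 19.7 normalized counts in p53KO–emiRFP (SD, n = 3), a difference from 0 h of -2.72 ± 0.21 (edgeR adjusted p = 7.8e-08). Plk2 and Inpp5d, an inositol phosphatase, also differed by -2.43 and -2.60. Mdm2, Gtse1 and Bbc3 had differences from 0 h of -0.03, -0.18 and -0.23 that were not called.
The rises of 0 h mostly did not pass the test at 48 h. Otx2 (-0.04), Krt18 (0.07), Thbs1 (0.21) and Col1a1 (-0.15) were not called at 48 h, and each differed from its 0 h value (interaction -1.04, -1.05, -1.41 and -1.40, edgeR adjusted p = 3.4e-05, 0.0016, 0.0039 and 0.0036). Psmb8 was lower at 48 h (-0.71, interaction -2.64 ± 0.36, edgeR adjusted p = 1.3e-04). Sox17, which fell at 0 h, was not called at 48 h (0.14, interaction 2.92 ± 0.42, edgeR adjusted p = 2.3e-04). Miip and Igf2 were higher at both times, by 1.12 and 1.73 at 48 h. Of the naive pluripotency genes, with 1 call higher and 7 lower at 0 h, 9 were called higher and 3 lower at 48 h, and in the interaction 9 of 24 differed, all towards higher values at 48 h. Gbx2, a homeobox gene of the naive state, went from -0.30 to 1.12 and Nr5a2, a nuclear receptor, from -0.14 to 0.81. Of the formative and primed genes 6 of 19 differed towards lower values at 48 h and 1 towards higher. Ribosome biogenesis and G1/S genes had 28 of 49 and 26 of 45 called higher at 48 h, but the interaction called 0 and 2 of them, so for nearly all a difference from 0 h was not shown.

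**Figure D4:**
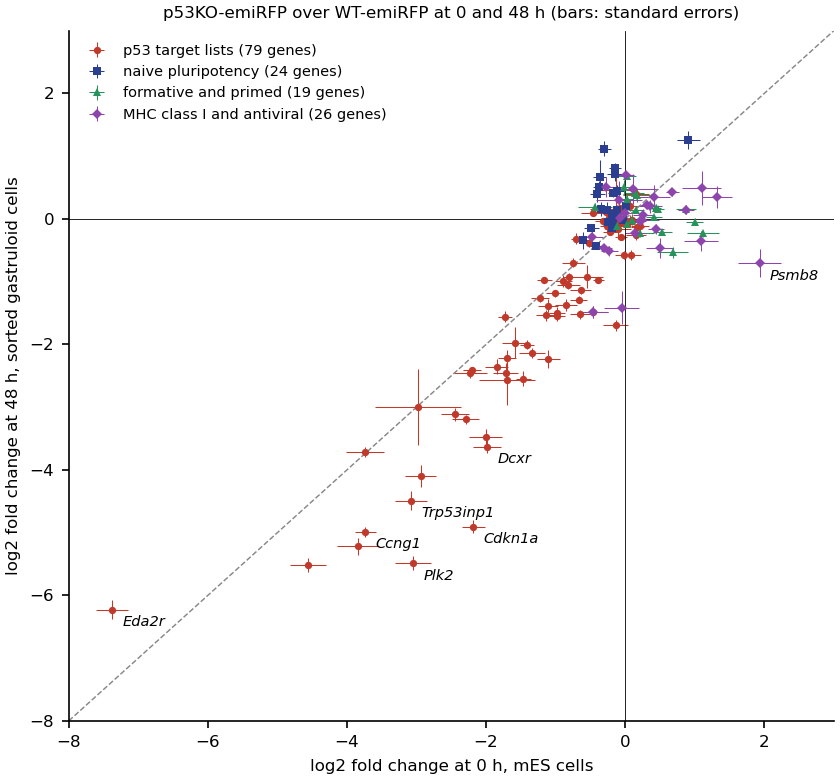
Log2 fold change of p53KO–emiRFP over WT–emiRFP in mES cells at 0 h (x axis) and in sorted gastruloid cells at 48 h (y axis) for the tested members of the p53 target, naive, formative and antiviral lists, with standard errors as bars and equal values on the dashed line. Cdkn1a lies at -2.18 and -4.90, Eda2r at -7.38 and -6.23, and Psmb8 at 1.93 and -0.71.

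Against the other WT clone the list of differences was longer, which bears on how far 1 clone stands for a genotype. p53KO–emiRFP against WT–mCherry gave 3929 calls (21.4%), 1945 higher (10.6%) and 1984 lower (10.8%). WT–emiRFP against WT–mCherry gave 2033 (11.1%), 1204 higher (6.55%) and 829 lower (4.51%). These comparisons share libraries, so they are given side by side. p53 targets showed 47 falls and 3 rises against WT–mCherry. Eda2r had log2 fold changes of -7.38 against WT–emiRFP, -7.81 against WT–mCherry and -0.44 between the WT clones (edgeR adjusted p = 0.072), and Ccng1 of -3.74, -4.22 and -0.48 (edgeR adjusted p = 0.036). Zfp365 differed between the WT clones too, with 3871, 2260.4 and 1932 normalized counts in WT–mCherry, above WT–emiRFP by 1.24 on the log2 scale (edgeR adjusted p = 0.0046). Acta2 rose by 2.34 and 1.66 against the 2 WT clones, Igf2 by 1.32 and 1.41 and H2-Q4 by 0.88 and 1.07.

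**Figure D5:**
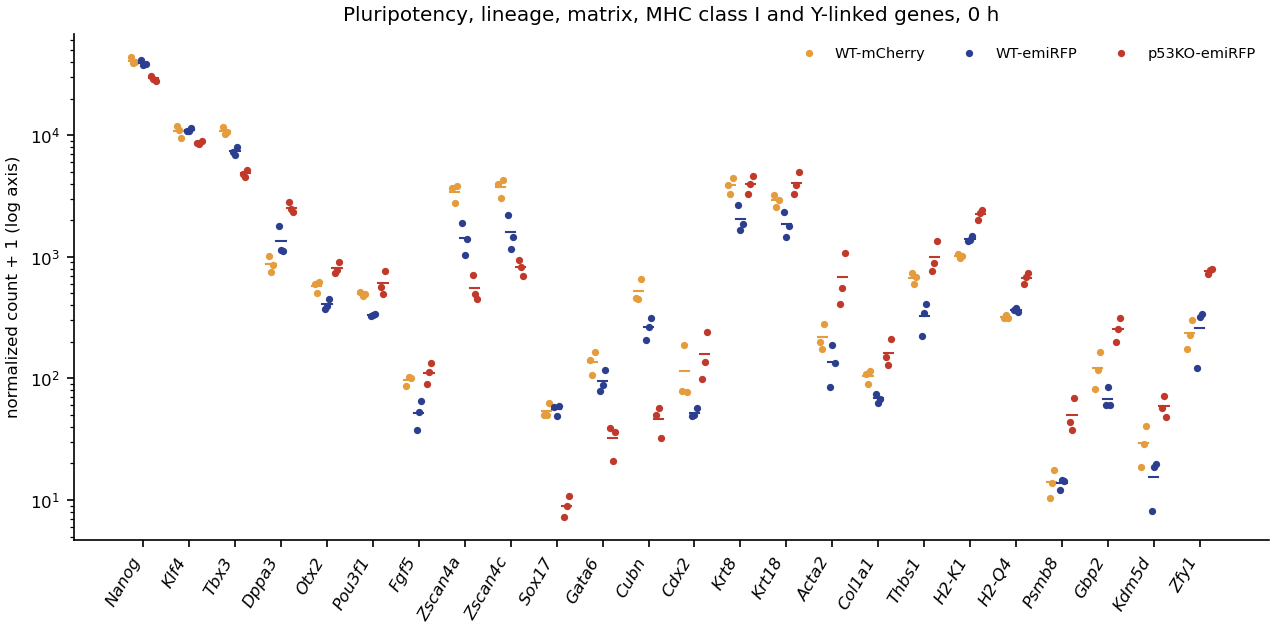
Normalized counts plus 1 (log axis) of pluripotency, lineage, matrix, MHC class I and Y-linked genes in each library of the 3 clones at 0 h, with bars at the means. WT–mCherry lies among the p53KO–emiRFP points for Krt8, at 3283 to 4438 against 3279 to 4582, and among or below WT–emiRFP for Sox17, Psmb8 and H2-Q4.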

How the data were processed

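Per the labels and the study's methods, the authors trimmed the reads with Trim Galore 0.6.7, aligned them to GRCm38.p6 with STAR 2.7.11b and counted uniquely mapped reads per gene. The libraries were stranded, and whether counting used the strand is not given in the sources used here, so overlapping genes may share reads. The deposited values are raw counts for 55367 gene symbols. Positions come from Gencode on GRCm38, which held 96.3% of the symbols.

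Counts were scaled by median-of-ratios size factors computed on all 69 libraries. After filterByExpr, edgeR's quasi-likelihood test (edgeR 4.0.16, R 4.3.3) was fitted to the 9 libraries of 0 h, with Benjamini-Hochberg adjustment over all tested genes and a threshold of 0.05. Alternatives were the replicate block, TMM, DESeq2 1.42.0, other filters, other sets of libraries and each replicate left out. Once group means were subtracted, p53KO–emiRFP and WT–emiRFP libraries of the same number correlated at 0.311, 0.181 and 0.357 over 13751 genes. For p53KO–emiRFP and WT–mCherry these values were 0.367, 0.160 and 0.081, and for the WT clones 0.340, 0.220 and 0.254. p53KO–emiRFP replicate 2 correlated at 0.266 with WT–mCherry replicate 3. The numbers of the labels were taken as pairs only in the replicate block and the naming rule. The main fit had no block. Simulated data with 200 changed genes served to test the scripts.

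Named were Trp53, the 10 largest rises and falls past the threshold (mean log2 CPM from 1 upwards, all 3 pairs in 1 direction), the 4 largest calls of each list, any member of a list of up to 25 genes, and the 5 largest differences between 48 and 0 h in each direction. The members and the 38 lists were chosen with earlier results of these data known. Other genes are said to be named after their values were seen, as were these members of larger lists: Foxo3, Ephx1, Sesn1, Sesn2, Gdf15, H2-K1, H2-Q4, Tap2, Irf7, Ncl, Mcm2, Mki67, Ccnd1, Utp4, Espl1, Twist1 and Vim.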

Additional observations from a re-analysis of the deposited data

Results flagged for a closer look

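For 10 genes, the largest in each direction by the naming rule, the p53KO minus WT difference differed between 48 and 0 h by the interaction term of the edgeR fit of both times. At 48 h the p53KO–emiRFP cells also had other neighbours than the WT–emiRFP cells, and which of these goes with the change was not tested.

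Higher at 48 h than at 0 h were 6330410L21Rik by 3.70, Gm47725 by 2.22, Pla2g4e, a cytosolic phospholipase, by 1.90, Myh13, a muscle myosin, by 1.88 and Eprn by 1.82 on the log2 scale. Myh13 was lower in p53KO–emiRFP at 0 h (-0.68 ± 0.11 SE) and higher at 48 h (1.20 ± 0.18), where its WT–emiRFP level was 27.8 ± 5.06 normalized counts against 1112 ± 23.3 at 0 h (SD, n = 3). Pla2g4e turned in the same way, from -0.65 to 1.26. The levels of 6330410L21Rik and Gm47725 at 48 h were under 20 normalized counts in both groups.

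Lower at 48 h than at 0 h were Vgf, a secreted neuropeptide precursor, by -3.14, Cdkn1a by -2.72, Sec14l5 by -2.62, Inpp5d by -2.60 and Plk2 by -2.43. Vgf was higher at 0 h (0.91 ± 0.25, edgeR adjusted p = 0.049) and lower at 48 h (-2.23 ± 0.17, edgeR adjusted p = 1.4e-07), and its 0 h call was lost without WT–emiRFP replicate 2 or 3 and without p53KO–emiRFP replicate 2 or 3. Sec14l5 had overlapping groups at 0 h (-0.04) and fell by 2.65 at 48 h. Inpp5d fell at both times, with 1731, 2179 and 1964 normalized counts against 10207, 10211 and 10121 at 0 h.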

How the results depend on the processing

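The number of calls between p53KO–emiRFP and WT–emiRFP at 0 h, 1129, became 1801 with the replicate block (the pairing of same-numbered libraries), 870 with only the 6 libraries of the pair, 2904 with all 69 libraries in the fit, 2686 against the mean of both WT clones and 421 with an absolute log2 fold change of at least 1, and ranged from 586 to 1548 over the fits without 1 library. For p53KO–emiRFP against WT–mCherry, 3929 became 6544 with all 69 libraries and 2452 to 3472 without 1 library. For the WT clones, 2033 became 3179 with the block, 5072 with all 69 libraries and 883 to 2597 without 1 library. At 48 h, 3896 (1822 higher and 2074 lower) became 7259 with the block (3945 and 3314). For the difference between 48 and 0 h, 764 became 1300 with the block, 1149 with DESeq2 and 462 to 1009 without 1 library. The cause of these shifts was not tested. Against the mean of both WT clones, 8 genes that were not called against WT–emiRFP passed with the opposite sign: Cdkn2a (0.59), Atf4 (0.35), Eif2ak2 (0.38), H19 (-1.64), Nnat (-0.99), H2bc14 (4.93), H2bc21 (2.45) and H2bc7 (3.86). All other results of single genes kept their direction where called, in 9699 cases on the same side of the threshold, in 371 newly past it and in 182 no longer past it. H2bc14, H2bc21 and H2bc7 are histone H2B genes, and WT–mCherry carried another H2B transgene than both emiRFP clones. The summed clustered histone list was at 14373 to 16101 in p53KO–emiRFP, 16902 to 19285 in WT–emiRFP and 3061 to 3543 in WT–mCherry. Whether reads of the transgenes were counted for these genes was not tested. The block ended no call of a named gene. At this depth genes of few counts, such as Fas and Trp53cor1, were near the limit of the test.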

Other observations

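A few further falls outside the lists were named after their values were seen. Eng, encoding the TGF-beta co-receptor endoglin, had 233, 215 and 283 normalized counts in p53KO–emiRFP against 2407, 1847 and 1958 in WT–emiRFP (-3.09 ± 0.27 SE, edgeR adjusted p = 1.4e-05). Mmrn2, a matrix protein, fell by 2.39 ± 0.21, Mcam, an adhesion molecule, by 1.24 ± 0.13, and Tek, the angiopoietin receptor, by 1.16 ± 0.14. None of the 4 overlapped between the groups, and at 48 h their log2 fold changes were -3.47 (Eng), -2.73 (Mmrn2), -1.53 (Mcam) and -1.87 (Tek).

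The remaining lists are given beside the 6.14% of all tested genes that were called. Of 30 germline genes Taf7l rose (0.68) and Hormad1 fell (-0.76), and without WT–emiRFP replicate 1, 2 rose and 1 fell, and with the replicate block 4 rose and 1 fell. Of 12 DNA methylation genes Dppa3, Dnmt3a and Dnmt3b rose and Zfp57 fell, 33.3% of the list, with 3 and 2 without WT–emiRFP replicate 1. Of 11 mesoderm genes Hand1 rose and Pdgfra (-0.92) and Mesp2 (-0.98) fell, with sums of 796 to 838 in p53KO–emiRFP and 749.6 to 896 in WT–emiRFP, and these calls were 27.3% of the list. Over the fits without 1 library 1 mesoderm gene rose and 1 to 2 fell. Of 6 neuroectoderm genes Sox1 fell (-0.74), a call lost without WT–emiRFP replicate 2 or 3 and without p53KO–emiRFP replicate 1 or 2. Of 12 mES cell genes Fgf4, Nanog and Klf4 fell, 25.0% of the list, with 4 lower without WT–emiRFP replicate 1 and 1 to 4 over the fits without 1 library. The calls of Fgf4 and Klf4 were lost without WT–emiRFP replicate 2 and without p53KO–emiRFP replicate 2 or 3, that of Klf4 also without WT–emiRFP replicate 3 or p53KO–emiRFP replicate 1. For 14 clustered core histone genes edgeR called 0 and DESeq2 0, with 2 lower at an unadjusted p under 0.05.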
